A study of Mus musculus with 10 samples.

Results

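The genes described here encode enzymes that write or erase methyl marks on histones and DNA or erase acetyl marks on histones, together with proteins that share their names. They were chosen by symbol alone: every gene on the array whose symbol begins with Kdm, Kmt, Hdac or Sirt and a number, or with Setd, or that is Tet1 to Tet3, Dnmt1, a Dnmt3 gene, Ezh1 or Ezh2. Of 63 such genes, 60 were kept, out of 13225 genes tested in all, because the mean of log2(signal + 22) over the 10 arrays was above 6.47 for their brightest probe set that names 1 gene. The 3 left out were Tet3 (mean 5.77), the Y-linked Kdm5d (5.55) and Dnmt3l (5.31), while the dimmest of those kept were Kdm4d (6.56) and Dnmt3b (6.60). The rule itself uses no measured response, but the members were chosen with earlier results of these data known.

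Hippocampal RNA of 3-week-old mice was hybridised to 10 oligonucleotide arrays, in 5 groups of 2. Each array held a pool from 3 to 4 mice, 20 A-CREB and 14 wild-type mice in all. The transgenic mice were TetO-A-CREB-95 on C57BL6 F1/J, given saline or kainate at 14 or 18 mg/kg. The wild-type mice were C57BL6 F1/J, given kainate at 14 mg/kg or saline, so that the higher dose had no wild-type counterpart and both A-CREB doses share 1 pair of saline arrays. The transgene itself was not measured here. A-CREB is a dominant-negative protein that pairs with CREB, the cAMP-responsive transcription factor, and keeps it off DNA. Kainate is a glutamate receptor agonist that causes seizures and strong neuronal activity. A TetO promoter acts only where a tetracycline-controlled activator is present. The activator line, the cells it reaches, the time between injection and dissection and the sex of the mice were not stated in the labels read here.

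Histone marks work in opposed pairs. Methyltransferases with a SET domain write methyl groups on lysines, which Kdm demethylases erase. Acetyl groups placed by acetyltransferases such as CREB-binding protein are removed by the zinc-dependent histone deacetylases (HDACs) and by the NAD-dependent sirtuins. On DNA, Dnmt enzymes methylate cytosine and Tet enzymes oxidise the methyl group as a first step of its removal. In neurons several of these enzymes take part in activity-dependent transcription and memory.

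The labels were checked on each array. The summed signal of 7 immediate-early genes ran from 55153 to 84409 on the 6 kainate arrays and from 8793 to 19469 on the 4 saline arrays, and 10 of 10 markers of hippocampal neurons were above the minimum. The summed signal of these hippocampal neuron markers was lower on all 6 kainate arrays (10787 to 14332) than on all 4 saline arrays (14474 to 15546). That of 5 pan-neuronal markers overlapped, at 50869 to 62501 on the kainate arrays and 55064 to 64152 on the saline arrays. The arrays numbered 2 stood apart from those numbered 1, with median signals of 134.6 to 152 against 94.9 to 106. Between the numbers, 14 of the 60 members were higher and 5 lower on arrays numbered 2 at an adjusted p under 0.05, beside 20.6% and 14.3% of all genes. Kdm6b led them, with a difference of 1.29 (SE 0.13, adjusted p = 2.71e-05). Results are therefore given both without and with the replicate number as a block, a term that compares arrays of the same number. Summed signals of 6 striatal markers reached 12863 on wild-type kainate replicate 2 and 3430 to 5735 on the other arrays. Those of 7 microglial markers were 12229 and 13907 in A-CREB mice after saline, 13427 and 17244 at 14 mg/kg and 14702 and 15992 at 18 mg/kg, 10535 and 11081 in wild-type mice after kainate and 11590 and 12007 in wild-type mice after saline. In pooled tissue, fewer cells of a type and less RNA per cell cannot be told apart. The part of these differences in the results below was not tested beyond the values given without single arrays.

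Since A-CREB blocks CREB, the promoters of the members were searched for its site, the cAMP response element TGACGTCA, for its core TGACG, which lies within the full site, and for the AP-1 site TGACTCA, on both strands. In the RefSeq table (GRCm38.p6) of windows from 250 bases before to 50 bases after each start, 49 of the 60 members had an entry, and a gene with several starts counted where any of them held the motif. Kdm6b and Setd1b were not among the 49. The full site was in 0 of 49 members and in 2.03% of 27025 genes. TGACG was in 13 members (26.5%) and in 23.0% of genes, and TGACTCA in 4 members (8.16%) and 5.95% of genes. Such a match is a description of the letters and not a bound site. Shown here are the 250 bases before the start of Kdm7a, the member with the second highest mean kainate response, which holds none of these motifs there, and of Kdm6a, the member with the smallest p between the genotypes, with TGACG in capitals beginning 47 bases before the start.
Kdm7a, minus strand, chr6:39206774-39207023: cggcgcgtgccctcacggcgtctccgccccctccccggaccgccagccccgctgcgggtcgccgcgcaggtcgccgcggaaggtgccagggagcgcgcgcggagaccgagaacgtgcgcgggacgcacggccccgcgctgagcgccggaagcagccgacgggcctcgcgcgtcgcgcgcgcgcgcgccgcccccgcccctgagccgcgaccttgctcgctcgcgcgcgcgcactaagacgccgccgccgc
Kdm6a, plus strand, chrX:18162325-18162574: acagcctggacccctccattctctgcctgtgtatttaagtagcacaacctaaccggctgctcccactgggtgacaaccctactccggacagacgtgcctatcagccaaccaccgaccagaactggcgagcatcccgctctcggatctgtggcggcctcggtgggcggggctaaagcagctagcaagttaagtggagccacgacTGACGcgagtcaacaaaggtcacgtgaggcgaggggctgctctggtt

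The first question was which of these enzymes change when the hippocampus is driven by kainate. Kdm6b rose in both genotypes once arrays of the same number were compared, 2.16-fold over the mean of both. In the same fit Setd1b fell by 0.59 on the log2 scale, a call that depended on single arrays. In the main fit, which has no block, 0 of the 60 members passed. Kdm7a was higher and Tet1 lower in both genotypes, without passing the threshold. Of the 60 members 42 (70%) had a mean response below 0, as had 57.2% of all genes, most histone methyltransferases and demethylases among them, while HDACs and sirtuins were spread on both sides of 0. Signals are the deposited values. Every change or difference is one of mean log2(signal + 22), kainate minus saline or A-CREB minus wild type. Its standard error (SE) is limma's, from a spread shared by all 5 groups of 2 arrays and moderated over genes. Adjusted p-values are limma's over all genes tested, called at 0.05.

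Over the mean of the A-CREB and wild-type responses to 14 mg/kg, 0 of 60 members passed an adjusted p of 0.05 by limma without the block, where 0.681% of all genes rose and 0.0151% fell. Unadjusted, 2 members were higher and 5 lower at p under 0.05, against 3.15% and 4.17% of all genes. With the replicate block 1 member rose and 1 fell, beside 1.91% and 0.968% of all genes, and 2 were higher and 9 lower at an unadjusted p under 0.05, beside 5.94% and 10.3%.

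The single responses gave fewer calls. In A-CREB mice at 14 mg/kg 1 member rose and 0 fell with the block (all genes, 1.10% and 0.166%), and 0 passed without it (0.310% and 0.00%). Unadjusted p under 0.05 was reached by 3 higher and 6 lower with the block (5.18% and 6.62%) and 0 and 2 without it (2.62% and 2.38%). At 18 mg/kg 0 members passed with the block (0.673% and 0.0227%) or without it (0.234% and 0.00%), and at an unadjusted p under 0.05 these were 3 and 4 with it (4.62% and 4.33%) and 1 and 0 without it (1.83% and 0.960%). In wild-type mice 1 member rose and 0 fell with the block (0.620% and 0.0907%), and 0 passed without it (0.181% and 0.00%). At an unadjusted p under 0.05 these were 2 and 6 with the block (3.86% and 5.89%) and 0 and 2 without it (1.84% and 1.68%). With 1 or 2 calls among 60, the members' shares are near those of all genes.

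Kdm6b encodes a Jumonji demethylase that removes the repressive methyl mark written by Polycomb complexes. It lies on chromosome 11 from 69398508 to 69420367 (GRCm38.p6). Its deposited signals in A-CREB mice were 523 and 989 after saline, 1057 and 2530.3 at 14 mg/kg and 608 and 2392 at 18 mg/kg. In wild-type mice they were 1185 and 2905 after kainate, against 596 and 1294 after saline. Each kainate array was above the saline array of the same number and genotype, but arrays numbered 2 were so much brighter that the wild-type groups overlapped. The change was 1.16 in A-CREB mice at 14 mg/kg (SE 0.69, adjusted p = 1), with 0.99 and 1.34 within the replicate numbers. With the block its SE was 0.20 and its adjusted p = 0.00921. In wild-type mice the change was 1.06 (SE 0.69, adjusted p = 1), 0.96 and 1.15 within the replicate numbers, and with the block the SE was 0.20 and the adjusted p = 0.0264. The mean of both responses was 1.11 (SE 0.49, adjusted p = 0.669), and with the block its 95% interval was 0.80 to 1.42 (SE 0.14, adjusted p = 0.000452).

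The rise of Kdm6b in the mean of both genotypes held whichever array was left out of the blocked fit, with adjusted p between 3.7e-05 and 0.00802 in 10 of 10 fits and a change of 1.11 without wild-type kainate replicate 2. The single genotypes rested on fewer arrays. The wild-type call passed in 4 of 10 such fits (adjusted p up to 0.415) and the A-CREB call in 7 of 10 (up to 0.151), lost without A-CREB saline replicate 2 or without any of the A-CREB arrays at 14 mg/kg. It was lost in wild type without any 1 of the arrays of wild-type mice or of A-CREB mice at 14 mg/kg. At 18 mg/kg the change was 0.73, with 0.21 and 1.26 within the replicate numbers, and did not pass (adjusted p = 0.225 with the block).

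A second, dimmer probe set of Kdm6b ran the other way between the replicate numbers and the same way with kainate. It gave 158 and 41.5 after saline, 444 and 248 at 14 mg/kg and 173 and 77.8 at 18 mg/kg in A-CREB mice. In wild-type mice it gave 508 and 208 after kainate, against 197 and 94.5 after saline. Arrays numbered 1 were the brighter ones here, and each kainate array was above the saline array of the same number and genotype. Its mean change at 14 mg/kg was 1.43 (SE 0.44, adjusted p = 0.482 over 23699 probe sets, and 0.000956 with the block). The dimmest probe set gave 15.2 and 62.3 after saline, 187 and 141 at 14 mg/kg and 94.0 and 129.6 at 18 mg/kg in A-CREB mice, and 67.9 and 83.7 after kainate, against 86.2 and 88.3 after saline in wild-type mice. Its values were 1.72 in A-CREB mice at 14 mg/kg, 1.24 at 18 mg/kg and -0.16 in wild-type mice, and none passed in either fit. Taken as the mean of its probe sets, Kdm6b passed without the block in A-CREB mice at 14 mg/kg (1.54, adjusted p = 0.017) and in the mean of both genotypes (1.11, adjusted p = 0.0081).

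**Figure D1:**
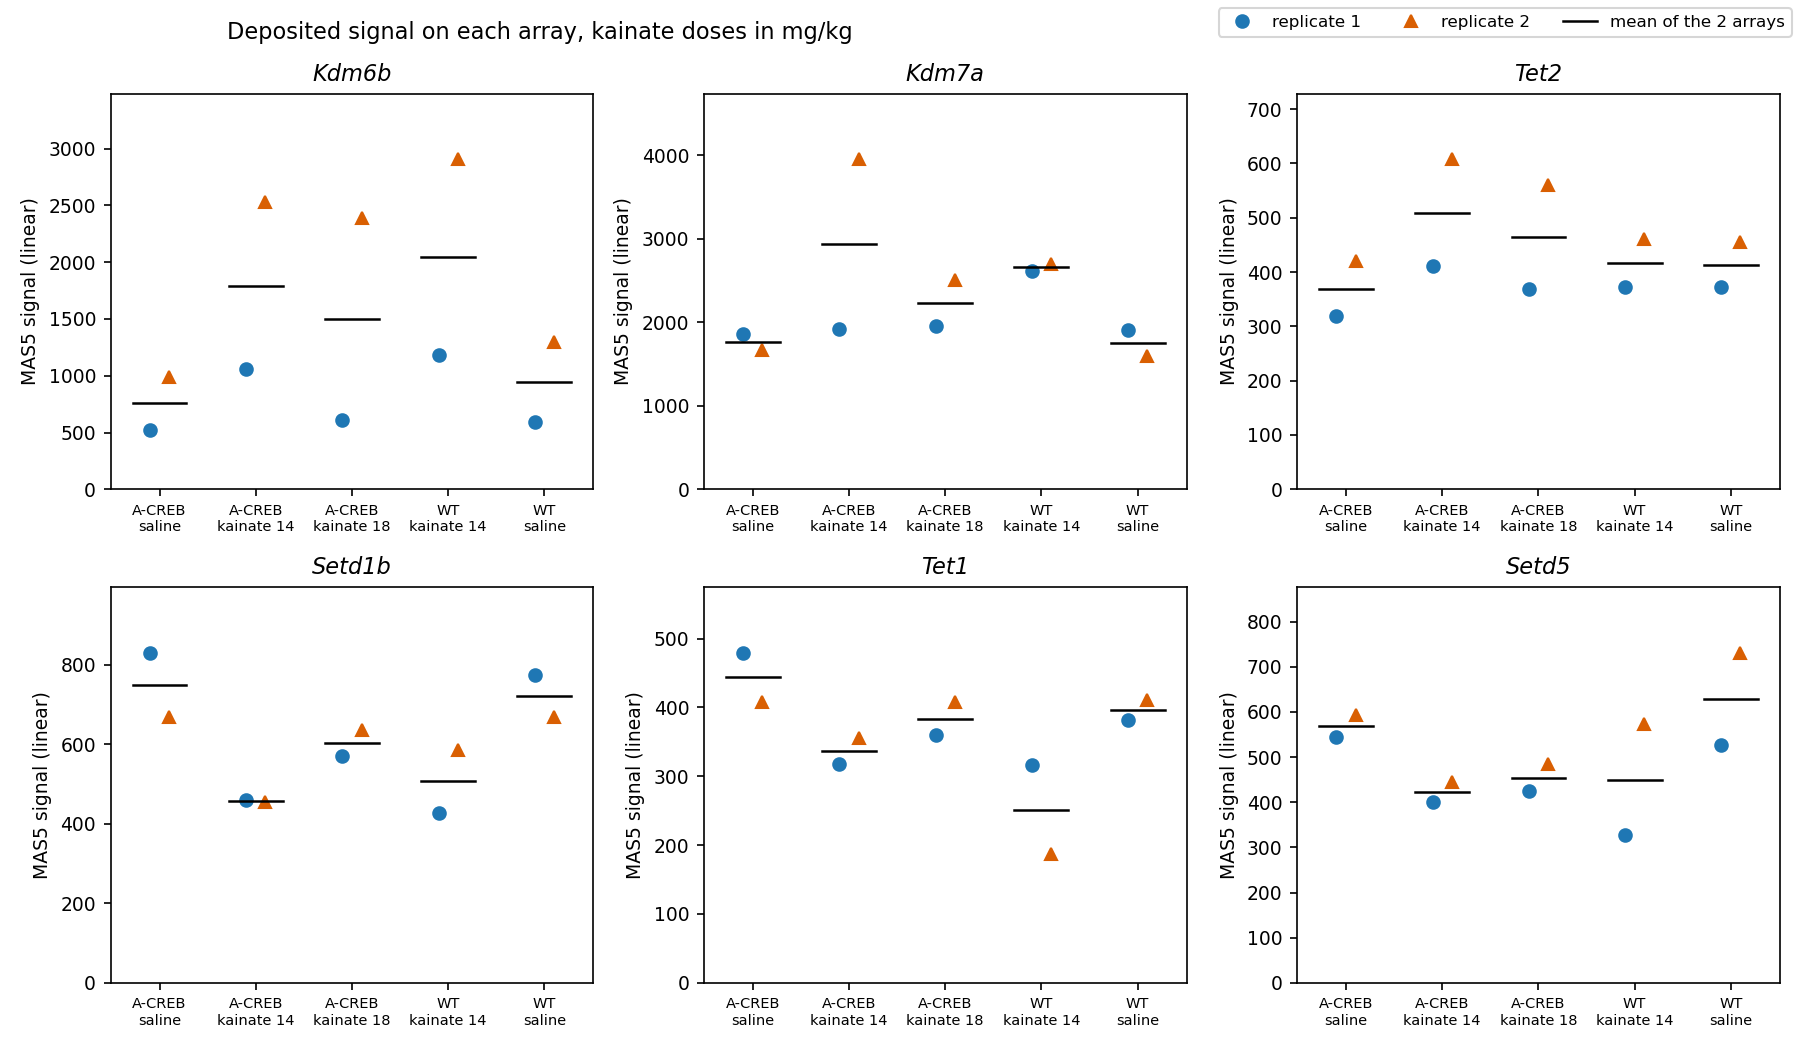
Deposited MAS5 signal (linear scale, from 0) of 6 members on each of the 10 arrays, by genotype and treatment with doses in mg/kg; circles are replicate 1, triangles replicate 2 and bars the mean of the 2 arrays. Kdm6b was brighter on every array numbered 2 and, within each number, on every kainate array, and the 6 kainate arrays of Setd1b (428 to 635) lie below its 4 saline arrays (667 to 829).

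Kdm7a encodes a Jumonji demethylase of repressive histone marks and lies on chromosome 6. In A-CREB mice its signals were 1859 and 1670.0 after saline, 1919 and 3951 at 14 mg/kg and 1955 and 2510.1 at 18 mg/kg, and in wild-type mice 2616 and 2704 after kainate, against 1908 and 1594 after saline. All 6 kainate arrays were above all 4 saline arrays, although A-CREB replicate 1 at 14 mg/kg was barely so. The changes were 0.64 in A-CREB mice at 14 mg/kg and 0.33 at 18 mg/kg, and 0.60 in wild-type mice, and the mean at 14 mg/kg was 0.62 (SE 0.21, adjusted p = 0.439, and 0.0652 with the block). Both other probe sets above the minimum were higher with kainate in all 3 comparisons, by 0.60 to 0.74 in A-CREB mice at 14 mg/kg, 0.35 to 0.51 at 18 mg/kg and 0.56 to 0.76 in wild-type mice. The A-CREB response at 14 mg/kg was 0.05 in replicate 1 and 1.23 in replicate 2, so its size rested on 1 pair.

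Among the other demethylases the kainate signals at 14 mg/kg were mostly at or below those after saline. Of the 17, 4 were higher and 13 lower in the mean response at 14 mg/kg, with a median of -0.16, where 57.2% of all genes were lower and the median was -0.04. Besides Kdm6b and Kdm7a only Kdm3a and Kdm4d were higher. At 18 mg/kg in A-CREB mice the balance was different, with 11 of the 17 higher and 6 lower than after saline. The median there was 0.09, where 50.2% of all genes were higher and the median was 0.00. Kdm3a, which erases the methyl mark of heterochromatin, had 928 and 1029.8 after saline, 1197 and 1009 at 14 mg/kg and 1278 and 991 at 18 mg/kg in A-CREB mice. Its wild-type signals were 1069 and 950.0 after kainate, against 905 and 784 after saline. The wild-type groups did not overlap and the A-CREB groups did, and the mean change was 0.21 (SE 0.14).

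Kdm4c, a demethylase of heterochromatin marks, was the lowest of the demethylases, with a mean change of -0.45 (SE 0.18, adjusted p = 0.577, and 0.165 with the block). It gave 344 and 380.3 after saline, 274 and 264 at 14 mg/kg and 401 and 247 at 18 mg/kg in A-CREB mice, and 250.4 and 314 after kainate, against 392 and 426 after saline in wild-type mice. At 14 mg/kg the kainate arrays lay below the saline arrays in both genotypes, and at 18 mg/kg the arrays disagreed. Its relatives Kdm4a and Kdm4b were at -0.41 and -0.31. Kdm2a, which acts at CpG islands, had 971 and 509 after saline, 525 and 435 at 14 mg/kg and 501 and 488 at 18 mg/kg in A-CREB mice and 501 and 529 after kainate, against 671 and 643 after saline in wild-type mice. A-CREB saline replicate 1 was far above every other array of Kdm2a, and the mean change was -0.44 (SE 0.19, adjusted p = 0.157 with the block). The A-CREB change of -0.54 at 14 mg/kg rested on the saline arrays, at -0.088 without replicate 1 and -0.99 without replicate 2. Without A-CREB saline replicate 2 Kdm2a was among 5 members that passed in the blocked fit for the mean response. Of its other probe sets above the minimum, one was at 0.17 in A-CREB mice at 14 mg/kg and 0.30 at 18 mg/kg. Kdm8, a dim Jumonji gene, was at -0.44, with -0.79 in A-CREB and -0.08 in wild-type mice. The remaining 9 demethylases, Kdm1a, Kdm1b, Kdm2b, Kdm3b, Kdm5a, Kdm5b, Kdm5c, Kdm6a and Kdm4d, ranged from -0.25 for Kdm2b to 0.09 for Kdm4d.

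H3K4 methyltransferases are the family that writes the active methyl mark of promoters and enhancers. Of the 8 members listed under this family, 7 were below and 1 above 0 in the mean response (median -0.21). The list goes by family, and whether each member writes the mark was not tested. Setd1b, the catalytic subunit of a COMPASS-type complex, led them and lies on chromosome 5 from 123142040 to 123168630. Its signals in A-CREB mice were 829 and 668 after saline, 461 and 455 at 14 mg/kg and 569.5 and 635 at 18 mg/kg. In wild-type mice they were 428 and 585 after kainate, against 774 and 667 after saline. Every kainate array, at either dose, was below every saline array. The mean change at 14 mg/kg was -0.59 (SE 0.15, adjusted p = 0.186), and with the block its SE was 0.14 and its adjusted p = 0.029. The changes were -0.68 in A-CREB mice at 14 mg/kg and -0.30 at 18 mg/kg, and -0.50 in wild-type mice, none of which passed alone. The second probe set gave nearly the same values, -0.67 and -0.45 in A-CREB mice at the rising doses and -0.50 in wild-type mice. Tested probe set by probe set, where more tests are adjusted for, neither passed with the block (adjusted p = 0.0621 and 0.0779). The gene passed in 4 of 10 blocked fits that each left out an array (adjusted p from 0.0129 to 0.145), and was lost without A-CREB saline replicate 1, either wild-type saline array, wild-type kainate replicate 1 or either A-CREB array at 14 mg/kg.

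Of the others, Kmt2d, the catalytic subunit of an enhancer-associated complex, was at -0.45 (adjusted p = 0.11 with the block) and lower in 4 of 4 kainate pairs. Kmt2b was at -0.32 and Setd1a at -0.20. Kmt2e, a SET-domain protein of this family, had 2333 and 2220.2 after saline, 1798 and 2187 at 14 mg/kg and 1759 and 1779 at 18 mg/kg in A-CREB mice. Its wild-type signals were 2062 and 1598 after kainate, against 2119 and 2233 after saline. In either genotype its kainate arrays were below its saline arrays, by a mean of -0.23 (SE 0.13, adjusted p = 0.335 with the block). Of its other probe sets above the minimum, the dimmest was higher in A-CREB mice, at 0.45 and 0.33 at the rising doses, and another was at 0.007 at 18 mg/kg. Kmt2c and Kmt2a were at -0.09 and -0.03. Setd7, a monomethyltransferase, was the 1 above 0 (0.13, SE 0.15), with 3857 and 2799 after saline, 3805 and 3809 at 14 mg/kg and 3756 and 3527 at 18 mg/kg in A-CREB mice and 3464 and 3158 after kainate, against 3826 and 2645 after saline in wild-type mice. The wild-type groups of Setd7 overlapped, and so did those of A-CREB mice at either dose.

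The 8 other histone methyltransferases were also mostly lower, 7 of them in the mean response (median -0.14), with 0 members past the threshold in either fit and ranging from -0.24 for Setd2, which marks transcribed gene bodies, to 0.19 for Setdb2. Kmt5b, which methylates histone H4, had 799 and 903 after saline, 636 and 705 at 14 mg/kg and 665 and 682 at 18 mg/kg in A-CREB mice and 746 and 748 after kainate, against 842 and 792 after saline in wild-type mice. All 6 kainate arrays were below all 4 saline arrays, by a mean of -0.23 (SE 0.12, adjusted p = 0.317 with the block). Of its other probe sets above the minimum, both dimmer ones were higher in A-CREB mice at 14 mg/kg, at 0.59 and 0.70, and the next brightest was at -0.12. With the mean of its probe sets, its A-CREB responses turned to 0.21 at 14 mg/kg and 0.088 at 18 mg/kg. Ezh1 and Ezh2, alternative catalytic subunits of Polycomb repressive complexes, were at -0.16 and -0.13. Ezh1 had 872 and 1003 after saline, 753 and 739 at 14 mg/kg and 842 and 854 at 18 mg/kg in A-CREB mice and 890.4 and 775 after kainate, against 793 and 874 after saline in wild-type mice, where the groups overlapped. Setdb1, which silences repeats, Kmt5c and Kmt5a were at -0.21, -0.11 and -0.09. Among the 4 remaining SET-domain proteins, Setd3 and Setd6 were at -0.04 and -0.21, Setd4 at 0.16 and Setd5, a gene of neural development in human and mouse, at -0.45 (SE 0.19, adjusted p = 0.102 with the block). Setd5 had 545 and 593 after saline, 401 and 445 at 14 mg/kg and 426 and 484 at 18 mg/kg in A-CREB mice and 327 and 572 after kainate, against 526 and 731 after saline in wild-type mice. Its A-CREB kainate arrays lay below its saline arrays and its wild-type arrays overlapped. The second probe set above the minimum was at 0.05 in A-CREB and 0.02 in wild-type mice.

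**Figure D2:**
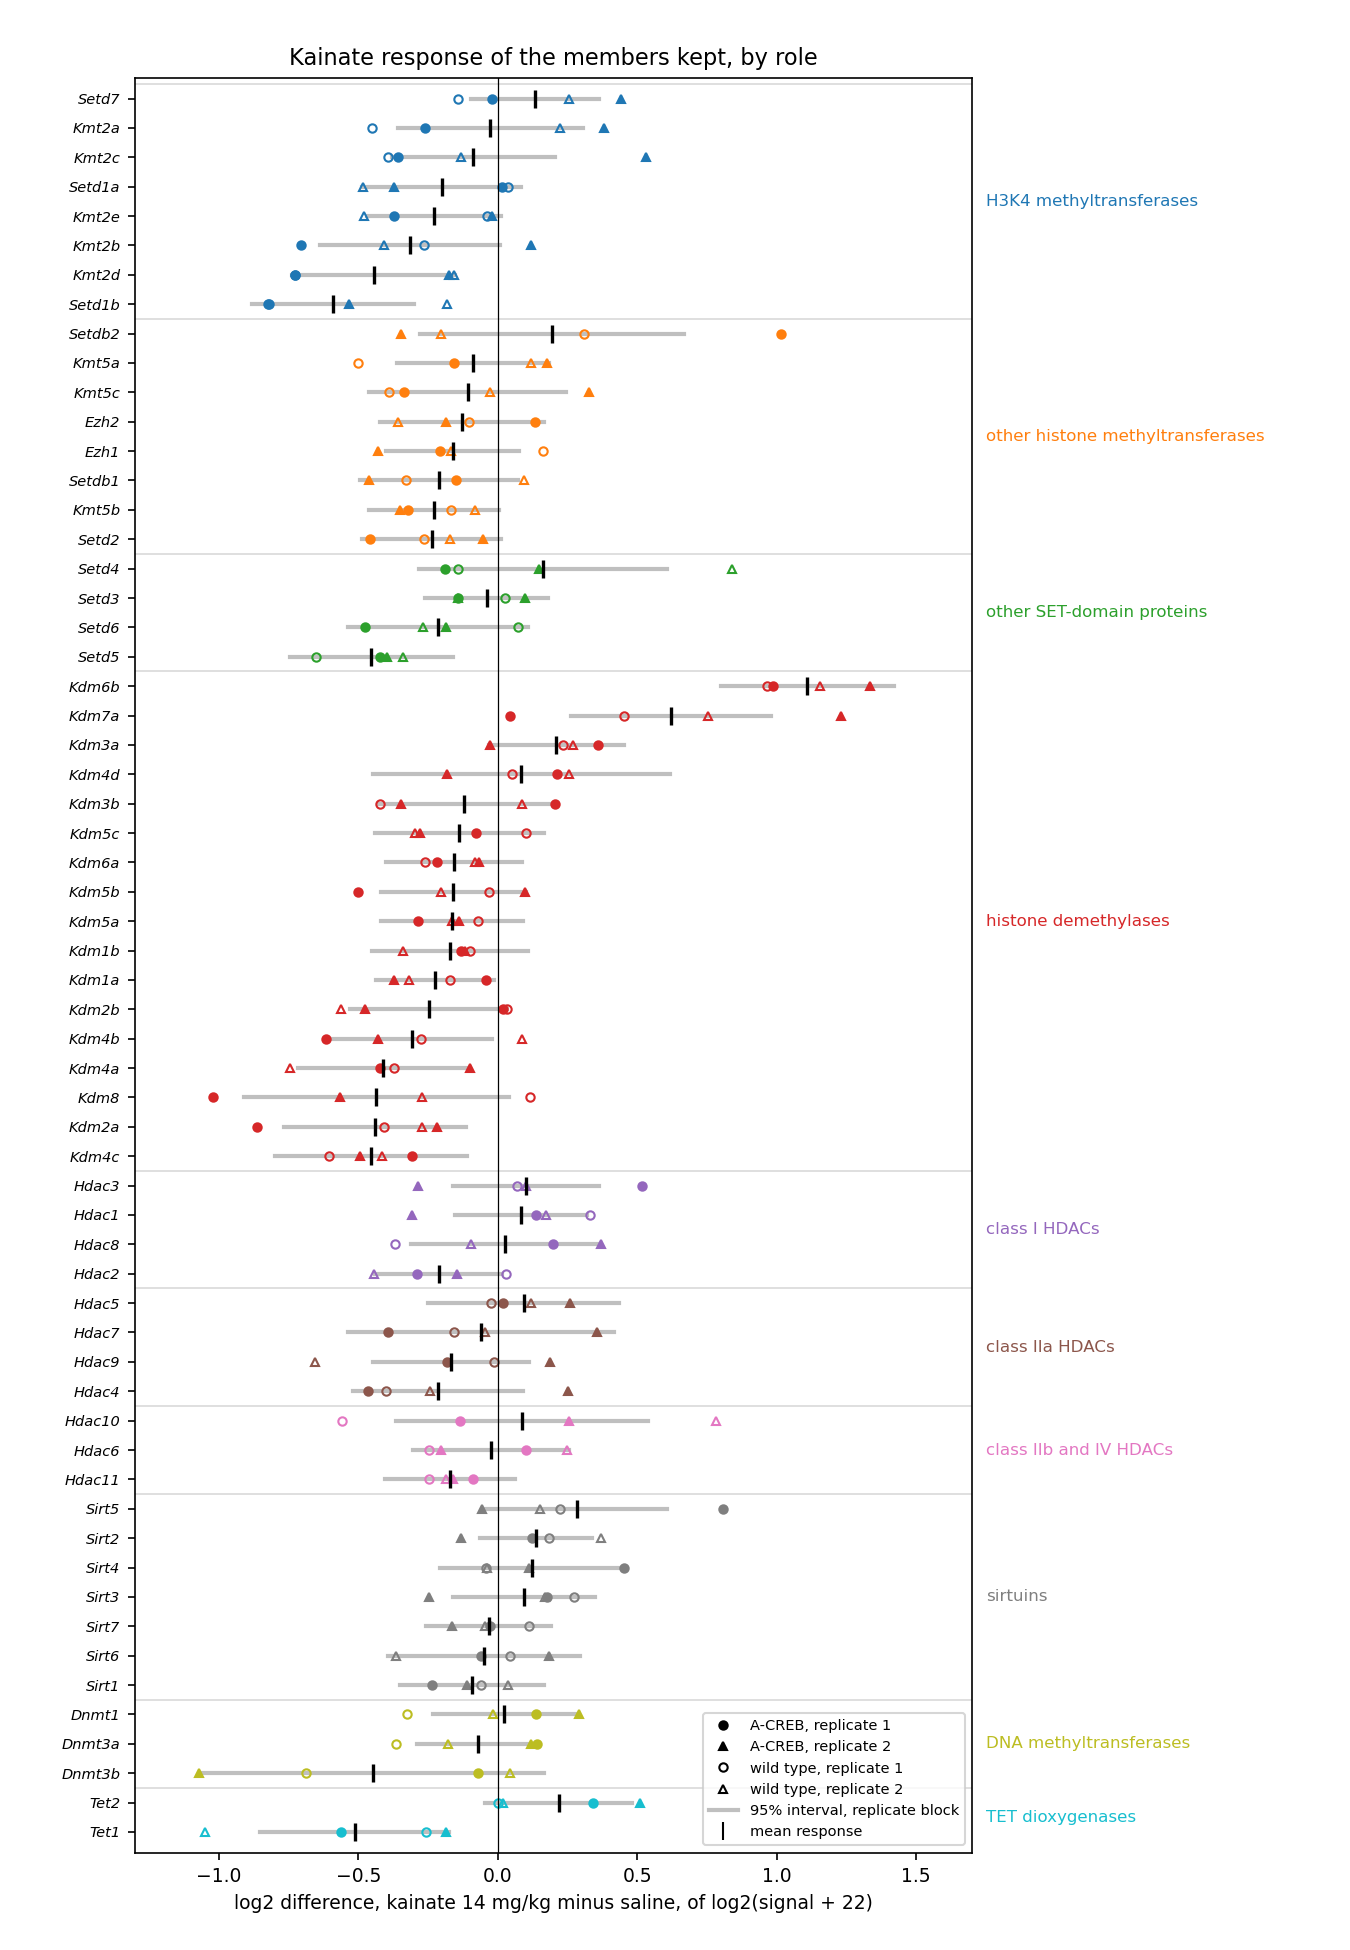
Kainate response of the 60 members by role, as the log2 difference between kainate at 14 mg/kg and saline of the same genotype; each row shows the 4 pairs of same-numbered arrays (filled, A-CREB; open, wild type), the mean response (black bar) and its 95% interval from the fit with the replicate block (grey). Kdm6b stands at 1.11 with 4 pairs between 0.96 and 1.34, while 15 members, among them Setd1b, Tet1 and Setd5, have all 4 pairs below 0.

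The enzymes of DNA methylation were few and uneven. Tet1 had 479 and 408 after saline, 318 and 356 at 14 mg/kg and 359.8 and 408 at 18 mg/kg in A-CREB mice. In wild-type mice it had 316 and 187 after kainate, against 382 and 411 after saline. At 14 mg/kg the kainate arrays lay below the saline arrays in both genotypes, most of all wild-type kainate replicate 2, and at 18 mg/kg the higher array reached the lower saline array. The mean change was -0.51 (SE 0.18, adjusted p = 0.469, and 0.111 with the block), with -0.37 in A-CREB mice at 14 mg/kg and -0.20 at 18 mg/kg, and -0.65 in wild-type mice. Both other probe sets above the minimum were lower in these 3 comparisons, at -0.09 to -0.41. Without wild-type kainate replicate 2, the array with the highest sum of striatal markers, the wild-type change of the brightest probe set was -0.31. The part of the striatal markers in the Tet1 values was not tested.

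Tet2 had 319.5 and 419.8 after saline, 411 and 607 at 14 mg/kg and 368 and 559.7 at 18 mg/kg in A-CREB mice and 373 and 461 after kainate, against 372 and 455 after saline in wild-type mice. Its wild-type groups were alike pair by pair, while the A-CREB kainate arrays were each above the saline array of the same number. The changes were 0.43 in A-CREB mice at 14 mg/kg and 0.29 at 18 mg/kg, and 0.01 in wild-type mice. A second probe set of Tet2 was higher in all 3 comparisons, by 0.82, 0.71 and 0.49 in the same order. None of these passed in either fit.

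Dnmt3a, which places new methyl groups, had 978 and 1010.4 after saline, 1081 and 1099 at 14 mg/kg and 1019 and 937 at 18 mg/kg in A-CREB mice and 933 and 957 after kainate, against 1206 and 1084 after saline in wild-type mice. In A-CREB mice its 14 mg/kg arrays were above the saline arrays and in wild-type mice they were below, with changes of 0.13 and -0.27 (SE 0.16 each). Its other probe sets above the minimum did not share this, with -0.09 in A-CREB and -0.54 in wild-type mice for one and -0.40 and 0.05 for the other. Dnmt1, which maintains methylation through cell division, was at 0.21 and -0.17 in the same order, and the dim Dnmt3b at -0.57 and -0.32. None passed in either fit.

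Deacetylases had no member past the threshold in any comparison, in either fit. The class I enzymes Hdac1, Hdac2 and Hdac3 are catalytic subunits of nuclear corepressor complexes. With Hdac8, the 4 class I enzymes had 3 members above 0 and 1 below in the mean response, from -0.21 for Hdac2 to 0.10 for Hdac3. Hdac3 had 1222 and 1496 after saline, 1758 and 1223 at 14 mg/kg and 1703 and 1602 at 18 mg/kg in A-CREB mice and 1669 and 1535 after kainate, against 1591 and 1431 after saline in wild-type mice, with A-CREB kainate arrays above saline at 18 mg/kg only. Hdac1 had 1126 and 1689 after saline, 1239 and 1361 at 14 mg/kg and 1242 and 1389 at 18 mg/kg in A-CREB mice and 1425 and 1496 after kainate, against 1128 and 1325 after saline in wild-type mice, so that the A-CREB saline arrays spanned its kainate arrays. Hdac8 had 200.2 and 174 after saline, 233 and 232 at 14 mg/kg and 199.7 and 255 at 18 mg/kg in A-CREB mice and 208 and 201 after kainate, against 274 and 216 after saline in wild-type mice. Its A-CREB responses at 14 and 18 mg/kg were 0.28 and 0.24 and its wild-type response was -0.23 (SE 0.25 each). The class IIa enzymes, which shuttle between cytoplasm and nucleus with calcium signals, had 1 above 0, Hdac5 at 0.09, and Hdac7, Hdac9 and Hdac4 below, at -0.06, -0.17 and -0.21. Hdac6, a cytoplasmic tubulin deacetylase, Hdac10 and Hdac11 were at -0.02, 0.09 and -0.17. The second probe set of Hdac11 was higher in A-CREB mice, at 0.65 at 14 mg/kg and 0.30 at 18 mg/kg, and lower in wild-type mice, at -0.37.

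Sirtuins were likewise on both sides, 4 of 7 above 0 in the mean response with a median of 0.09. Sirt5, a mitochondrial deacylase, was highest at 0.28 (SE 0.18, adjusted p = 0.379 with the block). It had 349 and 359.8 after saline, 627 and 345 at 14 mg/kg and 413 and 397 at 18 mg/kg in A-CREB mice and 502 and 461 after kainate, against 426 and 412 after saline in wild-type mice. A-CREB replicate 1 at 14 mg/kg stood above all others, and without it the A-CREB response was -0.035. The other probe set above the minimum, nearly as bright, was at -0.33 in A-CREB mice at 14 mg/kg, 0.15 in wild-type mice and -0.09 in the mean, so that the direction of Sirt5 depends on the probe set. Sirt2, a cytoplasmic tubulin deacetylase rich in myelin, had 5599 and 4694 after saline, 6103 and 4287 at 14 mg/kg and 5133 and 4367 at 18 mg/kg in A-CREB mice and 6485 and 6227 after kainate, against 5706 and 4810.1 after saline in wild-type mice. Only the wild-type kainate arrays were both above their saline arrays (0.28, SE 0.20), and the A-CREB change at 14 mg/kg was -0.00. Summed oligodendrocyte markers were 80960.0 and 67468 on the wild-type kainate arrays and 67920.5 and 70892 on the wild-type saline arrays. In A-CREB mice they were 79074 and 67223 at 14 mg/kg and 77813 and 60189 at 18 mg/kg, against 65361 and 64379.8 after saline. The part of these markers in the Sirt2 values was not tested. Sirt4 had 113 and 214 after saline, 163 and 234 at 14 mg/kg and 190.1 and 307 at 18 mg/kg in A-CREB mice and 176 and 256 after kainate, against 181 and 264 after saline in wild-type mice. It was brighter on arrays numbered 2 throughout, and its A-CREB change at 18 mg/kg was 0.56 (SE 0.38, adjusted p = 0.473 with the block). Sirt1, a nuclear deacetylase, had 454 and 538 after saline, 381 and 496 at 14 mg/kg and 441 and 455 at 18 mg/kg in A-CREB mice and 415 and 474 after kainate, against 433 and 461 after saline in wild-type mice, overlapping in each genotype at 14 mg/kg. Sirt3, Sirt6 and Sirt7 had mean changes of 0.09, -0.05 and -0.03.

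Seen together, 3 members were higher in all 4 pairs of same-numbered kainate and saline arrays, Kdm6b, Kdm7a and Tet2, which is 5% of the 60 beside 8.93% of all genes. Lower in all 4 pairs on their brightest probe sets were 15 members (25%, beside 16.0% of all genes). They were Hdac11, Kdm1a, Kdm1b, Kdm2a, Kdm4a, Kdm4c, Kdm5a, Kdm6a, Kmt2d, Kmt2e, Kmt5b, Setd1b, Setd2, Setd5 and Tet1. These shares were not tested, nor was the part in them of the hippocampal neuron markers, whose sums were lower on the kainate arrays. The median change was -0.09 in A-CREB mice at 14 mg/kg (all genes, -0.02), -0.03 at 18 mg/kg (0.00) and -0.12 in wild-type mice (-0.05).

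**Figure D3:**
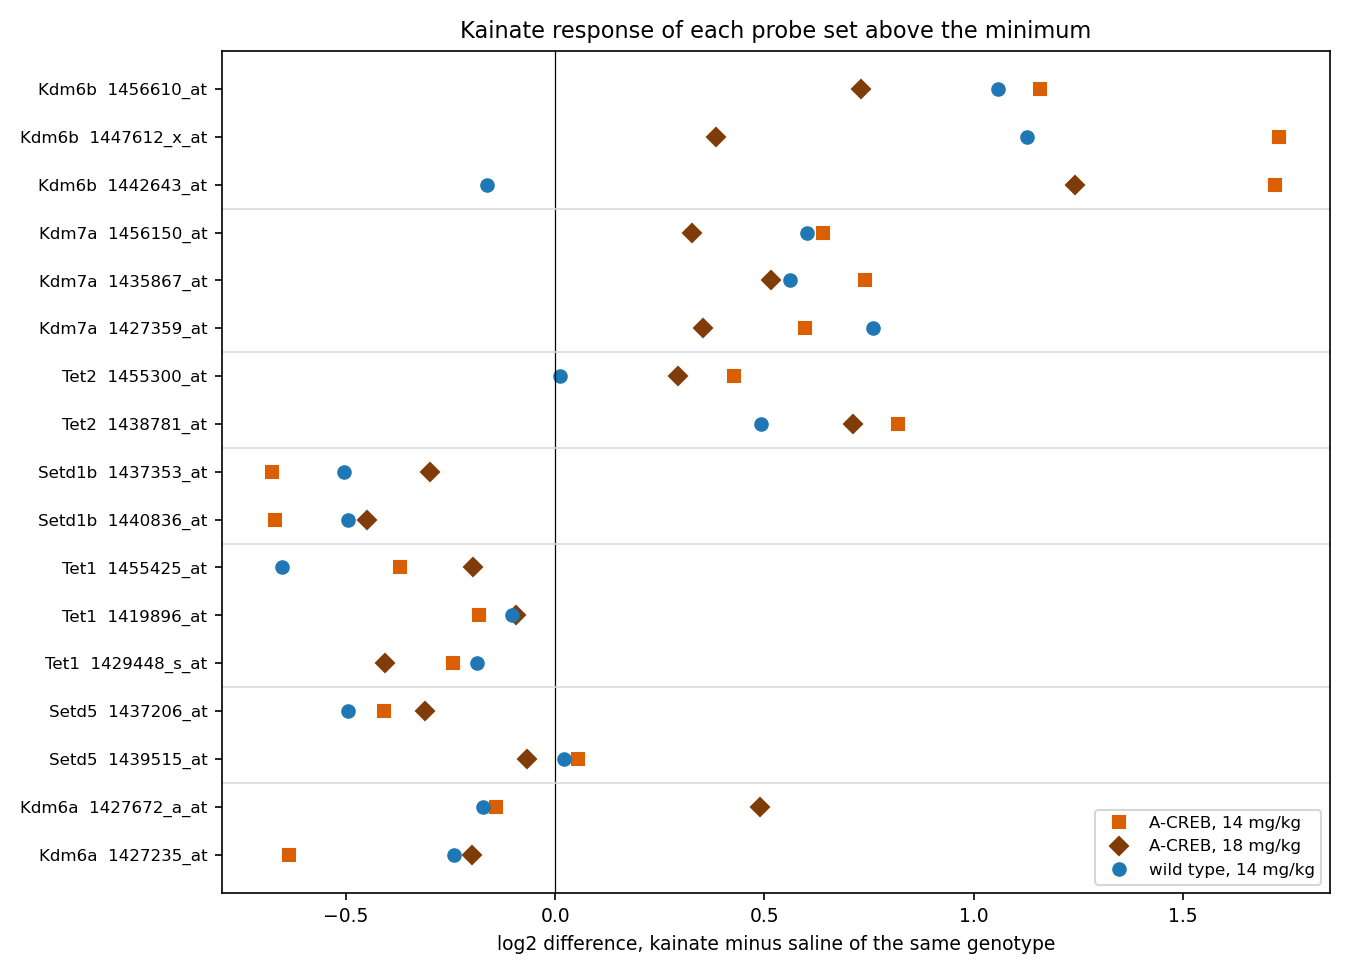
Kainate response, as the log2 difference from saline of the same genotype, of every probe set above the minimum that names 1 of 7 members, with A-CREB mice at 14 mg/kg (squares) and 18 mg/kg (diamonds) and wild-type mice (circles). The 3 probe sets of Kdm7a and both of Setd1b keep their direction in all 3 comparisons, while the dimmest of Kdm6b is at -0.16 in wild-type mice and the second of Setd5 lies near 0.

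The second question was whether blocking CREB alters the response of these genes. Comparing the A-CREB with the wild-type response at 14 mg/kg, 0 of 60 members differed in either fit by limma, beside 0.00% of all genes in both directions. At an unadjusted p under 0.05 there were also 0 members (all genes, 0.484% higher and 0.242% lower without the block, 2.25% and 1.33% with it). On its brightest probe set Kdm6b responded by 1.16 in A-CREB and 1.06 in wild-type mice, a difference of 0.10. The 95% interval of this difference was -0.52 to 0.72 in the blocked fit and -2.08 to 2.28 without the block. On the second and the dimmest probe set of Kdm6b the differences were larger, at 0.60 and 1.885, and were not tested probe set by probe set. With its probe sets averaged, Kdm6b responded by 1.54 in A-CREB and 0.67 in wild-type mice. For Setd1b the difference was -0.17, with a blocked interval of -0.75 to 0.41, and for Kdm7a 0.04, with -0.68 to 0.75. Intervals of this width include differences as large as the responses of Setd1b and Kdm7a themselves, so that these data do not show the responses to be equal. Among the members, the differences with the smallest p were those of Dnmt3a (0.40, SE 0.23, with 0.45 and -0.45 on its other probe sets) and Hdac8 (0.51, SE 0.35) above 0 and of Kdm4b (-0.43, SE 0.31) and Ezh1 (-0.32, SE 0.24) below.

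Direction was shared by many members without a test. Lower in both genotypes were 34 members (56.7%, beside 38.0% of all genes), 11 were higher in both (18.3%, beside 25.5%) and 15 differed in sign (25%, beside 36.5%). The 2 genotypes have saline arrays of their own.

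**Figure D4:**
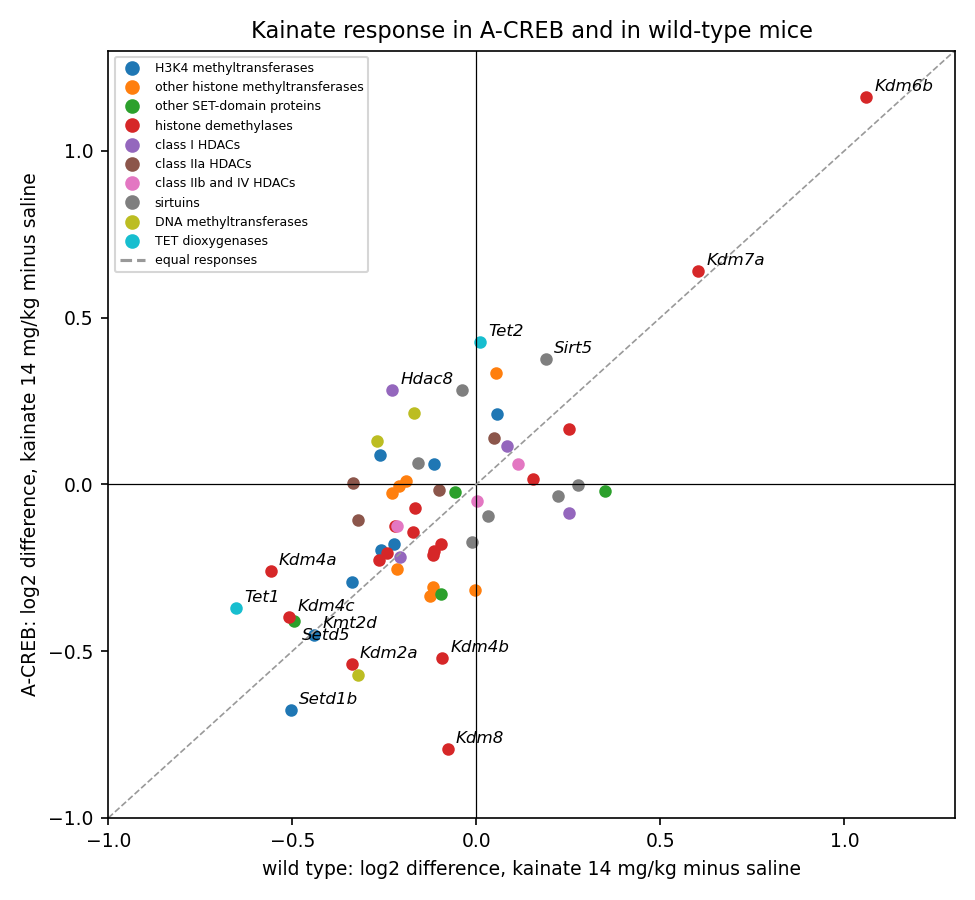
Kainate response at 14 mg/kg of the 60 members, A-CREB (vertical) against wild type (horizontal), each as the log2 difference from saline of the same genotype, coloured by role; the dashed line marks equal responses. Kdm6b (1.16 and 1.06) and Kdm7a (0.64 and 0.60) lie apart at the upper right and most methyltransferases and demethylases lie at the lower left.

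The third question was the level of the enzymes in A-CREB and wild-type hippocampus, after saline and after the same dose of kainate. After saline 0 members differed in either fit, beside 0.00% of all genes in both directions. At an unadjusted p under 0.05 there were 0 members without the block (all genes, 0.582% higher and 0.892% lower) and 0 higher and 2 lower with it (2.24% and 3.36%). After kainate 0 members differed, beside 0.00% of all genes without the block and 0.0227% higher and 0.0151% lower with it. Unadjusted p under 0.05 was reached by 0 without the block (0.658% and 0.612%) and 0 higher and 3 lower with it (2.52% and 2.46%). Averaged over both treatments 0 members passed, beside 0.00% of genes without the block and 0.0151% in each direction with it. At an unadjusted p under 0.05, 0 were higher and 2 lower in both fits (1.01% in each direction without the block, 2.98% and 3.60% with it).

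Summed signals of 5 astrocyte markers were higher in A-CREB than in wild-type mice in all 4 pairs of the same number, at 24816 and 29313 against 21884 and 25257 after saline and at 26888 and 28252 against 20117 and 23494 after kainate. Their part in the genotype differences was not tested.

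The lowest unadjusted p belonged to Kdm6a, the X-linked relative of Kdm6b with the same activity. Its signals in A-CREB mice were 438 and 508 after saline, 374 and 484 at 14 mg/kg and 626 and 719.9 at 18 mg/kg. Those in wild-type mice were 492 and 636 after kainate, against 594 and 675 after saline. At matched treatment each A-CREB array was below the wild-type array of the same number, by -0.42 and -0.40 after saline and by -0.38 and -0.38 after kainate. The mean difference was -0.39 (SE 0.15, adjusted p = 1, and 0.5 with the block). The second probe set did not follow and gave 579 and 769.7 after saline, 370.2 and 479.7 at 14 mg/kg and 559 and 600.4 at 18 mg/kg in A-CREB mice and 425 and 559 after kainate, against 542 and 621 after saline in wild-type mice, with a difference of 0.20 after saline and -0.20 after kainate.

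Hdac5 was at -0.44 in the mean difference (SE 0.19, adjusted p = 0.627 with the block). It had 1739 and 1021 after saline, 1762 and 1226 at 14 mg/kg and 1416 and 1411 at 18 mg/kg in A-CREB mice and 1713 and 2203 after kainate, against 1742 and 2027 after saline in wild-type mice. The difference lay in arrays numbered 2 alone, at -0.97 after saline and -0.83 after kainate, against -0.00 and 0.04 in arrays numbered 1. Kdm4b had 555 and 420.5 after saline, 354 and 307 at 14 mg/kg and 321 and 369 at 18 mg/kg in A-CREB mice and 469 and 464 after kainate, against 572 and 436 after saline in wild-type mice. Its A-CREB arrays were below the wild-type arrays after kainate (-0.47, SE 0.22), with overlap after saline (-0.05). Hdac4 had 549 and 382 after saline, 392 and 459 at 14 mg/kg and 406 and 492 at 18 mg/kg in A-CREB mice and 457 and 465 after kainate, against 610.1 and 554 after saline in wild-type mice and was lower in all 4 genotype pairs, by a mean of -0.22 (SE 0.15), with -0.16 and -0.06 on its other probe sets.

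On the higher side, Tet1 was at 0.29 in A-CREB relative to wild-type mice (SE 0.18), of which 0.43 was after kainate and 0.15 after saline, and its low wild-type kainate replicate 2 entered the first of these. Kdm3a was at 0.17 and Setd7 at 0.12, and these were the members higher in all 4 genotype pairs (2 of 60, beside 5.91% of all genes). Without wild-type saline replicate 2 the value of Setd7 was -0.008. Lower in all 4 were 10 members (16.7%, beside 9.40%), Hdac4, Kdm1a, Kdm4b, Kdm6a, Kdm6b, Kmt2d, Setd2, Sirt2, Sirt4 and Sirt7. Further probe sets above the minimum differed in sign for 4 members named for these comparisons besides Kdm6a. The mean genotype difference of Kmt2e was 0.10, with -0.17 to 0.01 on its other probe sets. After kainate Dnmt3a was at 0.20, with 0.20 and -0.19 on the others. After saline Ezh1 was at 0.16 and Hdac4 at -0.33, each with 1 other probe set across 0, at -0.04 for Ezh1 and 0.03 for Hdac4. Kdm6b itself was at -0.23 (SE 0.49, adjusted p = 0.831 with the block).

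**Figure D5:**
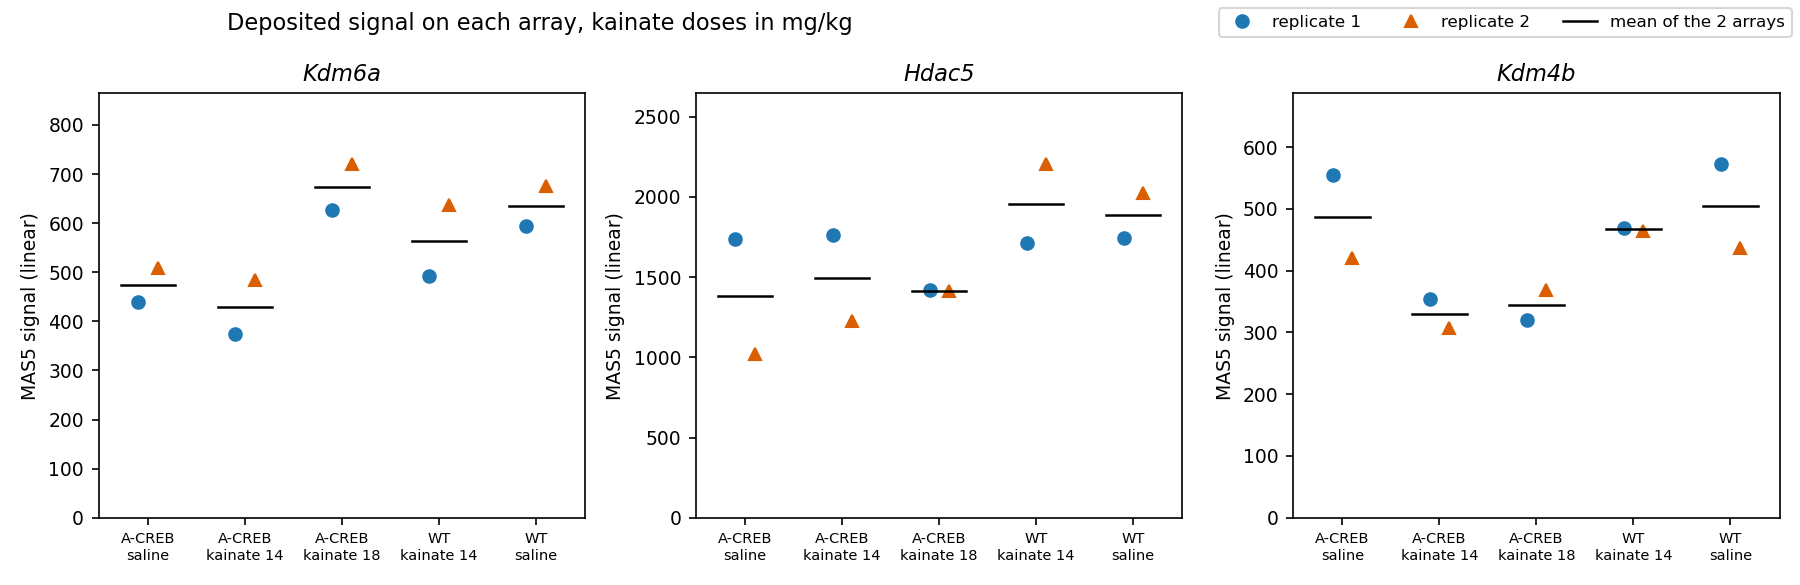
Deposited MAS5 signal (linear scale, from 0) of Kdm6a, Hdac5 and Kdm4b on each of the 10 arrays, by genotype and treatment with doses in mg/kg; circles are replicate 1, triangles replicate 2 and bars the mean of the 2 arrays. Kdm6a was 374 to 508 in A-CREB mice after saline and at 14 mg/kg and 626 and 719.9 at 18 mg/kg, and the low Hdac5 values in A-CREB mice after saline and at 14 mg/kg are those of replicate 2.

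Between the doses in A-CREB mice, 18 minus 14 mg/kg, 0 members differed in either fit, beside 0.00% of all genes in both directions, and 1 member was higher and 0 lower at an unadjusted p under 0.05 in both fits (all genes, 0.386% and 0.181% without the block, 1.91% and 1.12% with it). This was Kdm6a, whose arrays at 18 mg/kg did not overlap those at 14 mg/kg or after saline (0.63, SE 0.21, adjusted p = 1 in either fit). On its second probe set the dose difference was 0.44, but the response at 18 mg/kg was -0.20, against 0.49 on the first. Setd1b was closer to its saline level at 18 mg/kg (0.38, SE 0.21). Dnmt3a was at -0.15 (SE 0.16), with 0.16 and 0.23 on its other probe sets. Of the 17 demethylases 15 were higher at 18 than at 14 mg/kg, with a median of 0.20, beside 54.5% of all genes and a median of 0.02, the exceptions being Kdm6b (-0.43) and Kdm7a (-0.31). All of these values share the 2 arrays at 14 mg/kg, and the count was not tested.

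Partners of these enzymes were read from lists of genes outside the symbol rule, beside all genes, of which 57.2% were lower with a median of -0.04. Histone acetyltransferases had 12 measured members, 10 of them lower in the mean response at 14 mg/kg (median -0.18), with 0 past the threshold in either fit. Crebbp, the CREB-binding protein itself, was at -0.39 (SE 0.14, adjusted p = 0.522, and 0.0866 with the block) and its relative Ep300 at -0.38 (SE 0.15, adjusted p = 0.0889 with the block). Of 10 COMPASS subunits, which work with Setd1b and the Kmt2 enzymes, 7 were lower (median -0.11), with 0 past the threshold, and Rbbp5 and Ncoa6 were both at -0.38. Of 14 Polycomb subunits, 11 were lower (median -0.16), with Rnf2 at -0.29 and Jarid2 at 0.28 and 0 past the threshold.

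Among 15 subunits of HDAC-containing corepressor complexes 4 were higher and 11 lower (median -0.10). With the block Sap30, of the Sin3 complex, rose by 0.77 (SE 0.15, adjusted p = 0.0102) and Rcor2, of the CoREST family, fell by 0.67 (SE 0.15, adjusted p = 0.0266), while neither passed without it (adjusted p = 0.118 and 0.535). Of 25 further methyltransferases and demethylases 13 were higher and 12 lower. The SET-domain gene Prdm2 rose in the mean response by 0.70 (SE 0.13, adjusted p = 0.0408, and 0.00409 with the block) and by 0.94 in A-CREB mice at 14 mg/kg in the blocked fit (SE 0.17, adjusted p = 0.00977, against 0.0917 without it). The methyltransferase gene Nsd1 fell with the block (-0.49, SE 0.10, adjusted p = 0.0185, against 0.419 without it). Among 10 methyl-CpG binding proteins and partners of DNA demethylation, the stress-response genes Gadd45b and Gadd45g rose in the mean response by 2.69 and 2.72 (SE 0.25 and 0.26, adjusted p = 0.000663 and 0.000804), and the other 8 did not pass.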

How the data were processed

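RNA of hippocampal pools was measured on 10 Affymetrix Mouse Genome 430 2.0 arrays. The authors deposited 1 intensity for each of 45101 probe sets on a linear scale, made with MAS5 in GCOS per the submitters' processing notes, with no version stated there. On each array the 2% trimmed mean was 500.002 to 500.003, so a common scaling had been applied. The number of arrays limits the precision.

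Signals were taken as log2(signal + 22), which understates the change of dim genes. Leaving out 64 control probe sets, a single gene was named by 34945, several by 932 and none by 9160. A gene was represented by its brightest single-gene probe set, tested above a mean of 6.47. All arrays were fitted with limma 3.58.1 in R 4.3.3 (lmFit, 1 coefficient per group, eBayes with trend, 5 residual degrees of freedom), with two-sided tests adjusted by Benjamini-Hochberg over 13225 genes in each of 9 comparisons and called at 0.05. Differences run kainate minus saline, A-CREB minus wild type and 18 minus 14 mg/kg. The fit without the block was the main one. In the other, the replicate number was a block, which leaves 4 residual degrees. What it marks is unstated, as is whether replicates came from separate litters or experiments. The p-values therefore measure the spread between these pools. Same-numbered arrays deviated together in each of 10 pairs of groups (correlation 0.517 to 0.641), and for 10 of 10 arrays the best correlated other array bore its own number.

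Named with values on every array were members past the threshold and the 4 (3 kainate responses, their mean, and the saline and mean genotype differences) or 2 (other comparisons) with the smallest p on each side. Further probe sets above the minimum are mentioned where their sign differed in such a comparison. Of other lists, genes past the threshold and up to 2 by smallest p were named. The members, roles and lists were chosen with earlier results of these data known. The procedure was also run on simulated arrays whose noise and replicate effect were taken from the blocked fit. No result above rests on that run. Alternatives were other pseudocounts, no filter, quantile normalization, no intensity trend, averaging the probe sets of a gene, the block and leaving out each array. Added after seeing the data were each probe set on its own and the block without each array.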

Additional observations from a re-analysis of the deposited data

How the results depend on the processing

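Without the block, 0 members passed in any of the 9 comparisons, and no array left out, other pseudocount, missing filter, quantile normalization or missing trend changed that. With the replicate block the count was 1 in wild-type mice, 1 in A-CREB mice at 14 mg/kg and 2 in their mean. When the probe sets of a gene were averaged it was 1 in A-CREB mice at 14 mg/kg and 1 in the mean, and with each probe set tested on its own with the block again 1 and 1, with 0 in wild type, each time Kdm6b. The block changed no other call. When an array was also left out, the counts with the block ran from 0 to 1 in wild-type mice, 0 to 1 in A-CREB mice at 14 mg/kg and 1 to 5 in the mean. The highest, without A-CREB saline replicate 2, held Kdm2a, Kdm6b, Kmt2b, Kmt2d and Setd1b, and without wild-type kainate replicate 2 there were 3 (Kdm6b, Setd1b and Setd5). The A-CREB call was Kdm7a without A-CREB replicate 1 at 14 mg/kg and Kdm2a without A-CREB saline replicate 2. Of 420 alternative values for the 60 named differences, other than those leaving out an array, 410 kept direction and side of the threshold, 6 passed it and 4 changed sign, all 4 on averaging probe sets: Kmt5b in A-CREB mice (0.21 at 14 mg/kg, 0.088 at 18 mg/kg), Kmt2e in the mean genotype difference (-0.04) and Dnmt3a between the doses (0.08). In each of these the probe sets averaged differed in sign, and why they differ was not tested. Leaving out arrays changed the sign of Sirt5 in A-CREB mice at 14 mg/kg (-0.035 to 0.79), Hdac1 between genotypes after saline (-0.12 to 0.46), Setd7 in the mean genotype difference (-0.008 to 0.26) and Kdm7a between the doses (-0.83 to 0.20). With 2 arrays per group, signals near the background such as those of Kdm4d and Dnmt3b limit what can be seen.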

Other observations

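A probe set that names Kdm6b together with the transcript 1700064E03Rik was not used above. Its signals were 621 and 674 in A-CREB mice after saline, 925 and 1547 at 14 mg/kg and 901 and 1591 at 18 mg/kg, and 897 and 1098 in wild-type mice after kainate, against 546 and 897 after saline. Every kainate array was above the saline array of the same number and genotype. The changes were 0.87 and 0.87 in A-CREB mice at the rising doses and 0.49 in wild-type mice. The transcripts it names cannot be told apart on this array.

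The difference between the replicate numbers was as large as the kainate responses for many members. After Kdm6b, Dnmt3b (0.95, SE 0.25) and Kdm4d (0.89, SE 0.22), both dim, were the most increased on arrays numbered 2, followed by Sirt6 (0.68, SE 0.14). Kmt5a (-0.61, SE 0.11), Kmt2d (-0.60, SE 0.12) and Sirt3 (-0.56, SE 0.11) were the most decreased.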
